A study of Mus musculus with 8 samples.

Results

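Macrophages take up arginine and divide it between nitric oxide and ornithine, and ornithine is the source of the polyamines. The 10 genes described here, chosen by symbol, encode the inducible arginine transporter (Slc7a2), the inducible nitric oxide synthase and the enzyme that sets the supply of its cofactor (Nos2, Gch1), the pair that remakes arginine from citrulline (Ass1, Asl), both arginases (Arg1, Arg2), and the enzymes that make and acetylate polyamines (Odc1, Srm, Sat1). They are 10 of the 55487 genes in the deposited table, and they were chosen with earlier results of these data known. RNA was sequenced from J774A.1 cells, a mouse macrophage line, kept for 24 h either in LPS at 1 μg/mL or in the same LPS plus UDCA at 1 mM, and each group has 4 libraries. LPS, a component of bacterial cell walls that activates macrophages, was present in both groups, and UDCA is a secondary bile acid. The comparison thus asks how the RNA of LPS-treated cells differed when UDCA was present, and cells without LPS were not analysed here. All libraries came from 1 immortal line, and the labels do not say whether the 4 libraries of a group were separate cultures, so the p-values measure only the spread between these libraries.

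As background, nitric oxide synthase converts arginine to nitric oxide and citrulline, and it needs tetrahydrobiopterin, whose synthesis begins with the enzyme encoded by Gch1. Argininosuccinate synthetase (Ass1) and argininosuccinate lyase (Asl) turn citrulline back into arginine. Arginases split arginine into urea and ornithine, ornithine decarboxylase (Odc1) makes putrescine, spermidine synthase (Srm) extends it to spermidine, and the acetyltransferase encoded by Sat1 marks polyamines for breakdown or export. Nos2 is a classical marker of macrophages activated by LPS, and Arg1 is a widely used mouse marker of alternative activation.

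Values are TPM, reads corrected for the length of a gene and brought to a library total of about 1000000, so levels can be compared between genes. The columns summed to between 973190 and 977485 TPM with LPS and between 958918 and 962737 TPM with LPS + UDCA, and since TPM discards the read total, the depth is unknown. Between 11412 and 11730 genes reached 1 TPM per library, and 0 of the 28 pairs of libraries were identical. Across the genes tested (not independent of each other), log2(TPM + 1) had a Pearson correlation of 0.974 to 0.982 within a group and 0.905 to 0.919 between groups. The 7 macrophage markers were at 15.25 TPM or more in every library, with summed levels of 2799 to 2977 TPM in the LPS libraries and 916 to 999 TPM in the LPS + UDCA libraries. Past the thresholds given next, 4 of them (Cd68, Csf1r, Itgam and Lyz2) fell and 2 (Adgre1 and Fcgr1) rose, against 8.44% and 8.71% of all genes tested. Of 7 markers of other cell types, Cd3e, Ncr1 and Epcam were among those at 0 in all 8 libraries, and the 7 together summed to 0.730 to 1.03 TPM with LPS and 0.0200 to 0.340 TPM with LPS + UDCA.

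The 10 genes differed widely in level. Odc1 ranked 17 among all genes by its mean TPM in the LPS libraries, whereas Slc7a2 was listed at 0 throughout. A test with limma on log2(TPM + 1) took in 11796 genes, those averaging 1 TPM or more over the 8 libraries, and 7 of the 10 genes were among them. Arg2, with a mean of 1.05 TPM, passed this filter only through the LPS libraries, and Ass1 (0.589 TPM), Arg1 (0.221 TPM) and Slc7a2 were left out by it. Since a gene that enters the test through 1 group has to differ, Arg2 is left out of the counts that follow. They cover the 6 genes that averaged 1 TPM or more in each group. The shares of all genes tested beside them had no such filter and still include genes that entered through 1 group, such as Arg2. With both a 2-fold difference or more and an FDR under 0.05 required, 3 of the 6, Odc1, Nos2 and Sat1, fell, where 8.44% of all genes tested fell by the same rule. None of the 6 rose by that rule from limma, against 8.71% of all genes tested, and at an unadjusted p under 0.05 Gch1 alone was higher, against 41.3%. Asl and Srm were lower at an FDR under 0.05 without reaching 2-fold, so that 5 of 6 were lower at that FDR, against 32.3% of all genes tested. In the other direction 1 of 6, Gch1, passed the FDR, against 40.2%. Separate ranges in the 2 groups were found for 5 genes that were lower and 1 that was higher, against 29.9% and 37.0% of all genes tested. The median log2 fold change was -1.14 over the 6 genes and 0.08 over all genes tested. Because the genes were chosen with earlier results known, these counts describe them and cannot test the pathway as a whole.

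**Figure D1:**
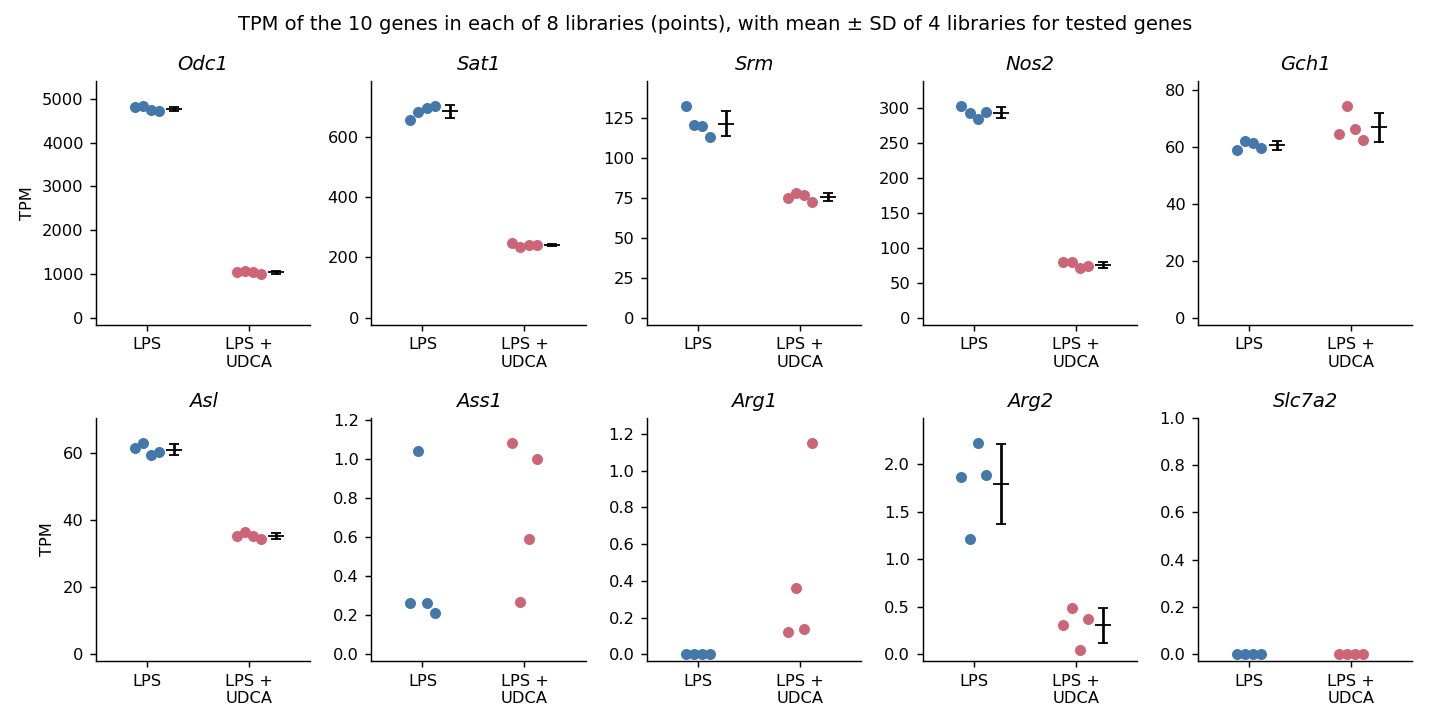
TPM of each of the 10 genes (y axis, linear, a scale of its own per panel) in the 4 LPS libraries (blue) and the 4 LPS + UDCA libraries (red). Points are libraries, and the black mark with bars beside them is the mean ± SD of the 4 libraries for the 7 genes tested. In Odc1, Sat1, Srm, Nos2, Asl and Arg2 every LPS + UDCA library lies below every LPS library, and the panels of Ass1, Arg1 and Slc7a2 reach no more than 1.15 TPM.

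Nos2 carries the synthesis of nitric oxide in activated macrophages. It lies on the plus strand of chromosome 11 from 78920787 to 78960254 (GRCm38; identifier ENSMUSG00000020826), and none of the 31-base words of its transcript occurs in another annotated gene. Its TPM was 302, 292, 284 and 294 in LPS replicates 1 to 4 and 79.5, 79.2, 71.3 and 73.3 in LPS + UDCA replicates 1 to 4. The groups were far apart, and the spread within each was small. The means were 293 ± 7.53 and 75.8 ± 4.16 TPM (SD, n = 4), a level 3.87-fold lower with UDCA. In limma the log2 fold change was -1.94, with a 95% confidence interval from -2.04 to -1.84 and an adjusted p of 2.0e-09, and over 19 alternative settings it stayed between -2.05 and -1.87. Its rank among all genes went from 459 to 1579. In a bulk library, fewer cells expressing a gene and less of its RNA per cell cannot be told apart, for this gene and for those that follow.

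Gch1, whose product makes the first intermediate of tetrahydrobiopterin, did not go with Nos2. It lies on the minus strand of chromosome 14 from 47153895 to 47189413 (ENSMUSG00000037580). The LPS libraries had 59.0, 62.3, 61.6 and 59.8 TPM and the LPS + UDCA libraries 64.6, 74.35, 66.4 and 62.55 TPM. The groups came close to touching, with 62.3 TPM in the highest LPS library and 62.55 TPM in the lowest LPS + UDCA library. The log2 fold change was 0.14 with a 95% confidence interval from 0.01 to 0.26 (adjusted p = 0.048 from limma), so the interval excludes a 2-fold change in either direction. The adjusted p was under 0.05 in only 8 of 19 alternatives and ranged from 0.020 to 1, and median-of-ratios scaling gave a log2 fold change of 0.03 with an adjusted p of 0.66 from limma.

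Other genes of tetrahydrobiopterin metabolism were taken from a list of 7. Like the lists below, it was chosen with earlier results of these data known, so its counts are description only. Of the 6 that were tested, 5 were lower at an FDR under 0.05 and 2 of these fell past both thresholds, where 32.3% and 8.44% of all genes tested did so. None of the 6 rose by limma's test or was higher at an unadjusted p under 0.05, against 8.71% and 41.3% of all genes tested, with a median log2 fold change of -0.58. Among these was Gchfr, whose product is the feedback regulator of the Gch1 enzyme, which went from 11.02 ± 1.33 to 2.30 ± 0.655 TPM (log2 fold change -1.88, adjusted p = 3.9e-06 by limma). Spr, the last enzyme of the synthesis, was lower without reaching 2-fold (log2 fold change -0.84). Among nitric oxide synthases, their modifiers and the nitric oxide receptor, 4 of 11 genes were tested, and 1 of these fell past both thresholds, where 8.44% of all genes tested did so. It was Nostrin, whose product directs the traffic of the endothelial synthase, from 8.78 ± 0.107 to 3.36 ± 0.325 TPM. The receptor subunit genes Gucy1a1 and Gucy1b1 did not exceed 0.01 TPM in any library.

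The supply of arginine to the cell was represented by Slc7a2, on the plus strand of chromosome 8 from 40862396 to 40922308 (ENSMUSG00000031596), and its value was 0 TPM in all 8 libraries. A value of 0 in this table can be a failed estimate, so it is reported only as listed, and no fold change was formed. In the list for arginine transport and the urea cycle, 5 of 11 genes were tested. By limma 0 passed both thresholds in either direction, where 8.71% of all genes tested rose and 8.44% fell. At an unadjusted p under 0.05 from limma, 2 were higher and 2 lower, which 41.3% and 33.2% of all genes tested reached. Slc3a2, the heavy chain shared by several amino acid exchangers, was the most abundant and lay at the threshold. Its LPS libraries had 439, 464, 443 and 443 TPM and its LPS + UDCA libraries 897, 883, 904 and 895 TPM, which put its log2 fold change at 0.99873 (limma's adjusted p = 5.6e-09). It passed 2-fold in 5 alternatives, among them the fits without LPS replicate 2 and without LPS + UDCA replicate 2, at 1.02 and 1.01. Slc7a1, the constitutive arginine transporter, was higher with UDCA, though under 2-fold, at 82.3 TPM against 46.3 ± 3.49 (log2 fold change 0.82, adjusted p = 1.4e-06 from limma). Slc7a7, a light chain that works with Slc3a2 in the exit of arginine, had 17.4 ± 0.601 and 9.77 ± 0.607 TPM (log2 fold change -0.78). The urea cycle genes Cps1, Otc and Nags were at 0 in every library.

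The pair that remakes arginine from citrulline was unequal in both groups. Asl, on the minus strand of chromosome 5 from 130011258 to 130029247 (ENSMUSG00000025533), had 61.5, 62.9, 59.2 and 60.2 TPM with LPS and 35.2, 36.3, 35.2 and 34.3 TPM with LPS + UDCA. Its groups did not overlap, with a log2 fold change of -0.77 (95% confidence interval -0.86 to -0.68, adjusted p = 2.1e-07 from limma), short of 2-fold. Ass1, on the plus strand of chromosome 2 from 31470207 to 31520672 (ENSMUSG00000076441), encodes the enzyme of the slower step and was barely detected. It had 0.26, 1.04, 0.26 and 0.21 TPM with LPS and 1.08, 0.27, 0.59 and 1.00 TPM with LPS + UDCA. These groups overlapped (exact permutation test on log2(TPM + 1), 2-sided p = 0.26). Per length, the ratio of Ass1 to Asl was at most 0.0307, in LPS + UDCA replicate 1. Of the 31-base words of Ass1, 43.1% occur in 1 other gene, the processed pseudogene Gm5424, which was at 0 in every library.

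Both arginases were at trace levels. Arg1, on the minus strand of chromosome 10 from 24915221 to 24927484 (ENSMUSG00000019987), was listed at 0 in each LPS library and had 0.12, 0.36, 0.14 and 1.15 TPM in LPS + UDCA replicates 1 to 4. Only replicate 4 exceeded 1 TPM. As for Slc7a2, a listed 0 can be a failed estimate, so no direction was drawn for Arg1. Arg2, the mitochondrial arginase, on the plus strand of chromosome 12 from 79130777 to 79156301 (ENSMUSG00000021125), had 1.86, 1.21, 2.22 and 1.88 TPM with LPS and 0.31, 0.49, 0.05 and 0.37 TPM with LPS + UDCA. The groups did not overlap. In the fit of all genes with a mean above 0, which does not depend on the 1 TPM filter, the log2 fold change was -1.10 and the adjusted p was 5.5e-04 from limma. Over the 18 alternatives limma's adjusted p ran from 1.7e-04 to 0.0036, but the others kept that filter, so their p-values add no support. The log2 fold change depended on the settings, at -0.995 without LPS + UDCA replicate 3, just short of 2-fold, and -2.36 with a pseudocount of 0.1. Of the 31-base words of Arg2, 23.6% also occur in the genes Vti1b (104 ± 5.14 and 95.1 ± 3.77 TPM) and Gm48780, which overlap it on the opposite strand, and whether strand was used in the counting is not given in the sources used here. Summed as listed, the arginases had 1.79 ± 0.422 TPM in the LPS libraries, all of it Arg2, and 0.748 ± 0.583 TPM in the others. The latter mean was 0.490 TPM without LPS + UDCA replicate 4. Since the sum takes the listed 0 of Arg1 as a value, no direction was drawn for the sum either. In each library the sum was below Nos2.

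Of 6 other markers of alternative activation, only Clec10a, a lectin receptor, passed the filter. Its level was 3.97 ± 0.968 TPM in the LPS libraries and 2.18 ± 0.165 TPM in the others (log2 fold change -0.63, adjusted p = 0.0030 from limma, under 2-fold). The other 5, Mrc1 (which encodes CD206), Retnla, Chil3, Mgl2 and Cd163, did not exceed 0.05 TPM in any library.

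**Figure D2:**
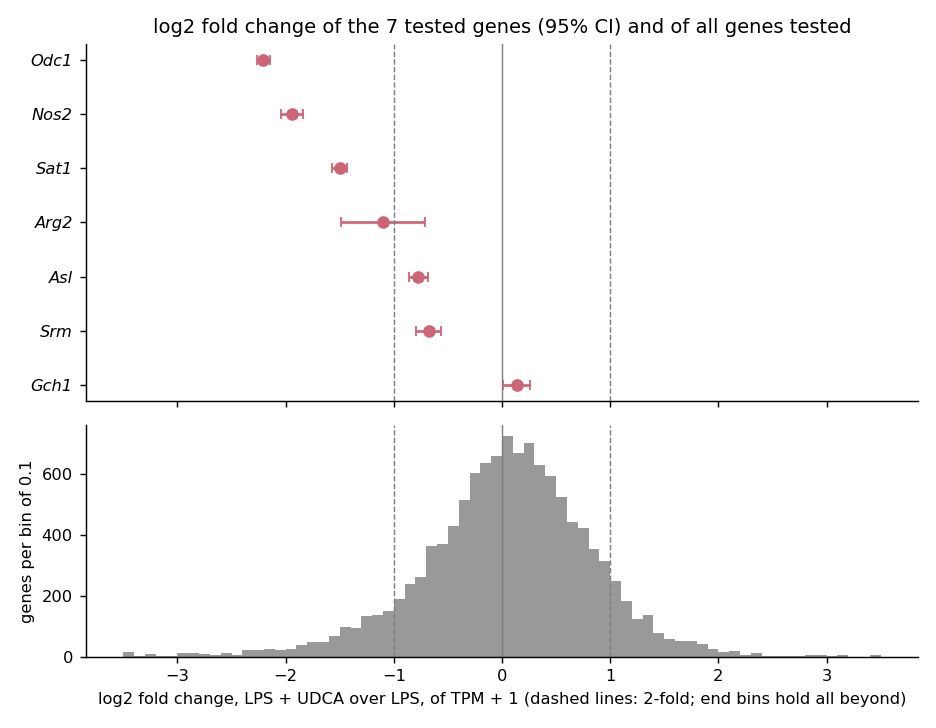
Log2 fold change (x axis, LPS + UDCA over LPS, of TPM + 1) of the 7 genes tested, with 95% confidence intervals from limma (upper part), above the number of genes per bin of 0.1 for all 11796 genes tested (lower part, end bins holding all beyond). Odc1 at -2.21, Nos2 at -1.94 and Sat1 at -1.501 lie beyond the dashed line of a 2-fold decrease with their whole intervals, the interval of Arg2, a gene that entered the test through its LPS libraries, crosses that line, and Gch1 lies at 0.14.

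Odc1, the gene of the enzyme that commits ornithine to polyamines, was the most abundant of the 10 and had the lowest log2 fold change. It lies on the plus strand of chromosome 12 from 17544794 to 17551505 (ENSMUSG00000011179), with the small nucleolar RNA gene Gm22748 overlapping it on the same strand. It had 4806, 4831, 4741 and 4722 TPM with LPS and 1045, 1062, 1036 and 997 TPM with LPS + UDCA. Each LPS + UDCA library was far below each LPS library, with means of 4775.0 ± 52.0 and 1035 ± 27.4 TPM (SD, n = 4), a 4.61-fold lower level. Its log2 fold change in limma was -2.21, with a 95% confidence interval from -2.26 to -2.15 and an adjusted p of 6.9e-11, and its rank by TPM among all genes moved from 17 to 154. Over 19 alternatives the log2 fold change stayed between -2.31 and -2.11. Of the 31-base words of Odc1, 31.3% occur in 21 other genes, among them the processed pseudogene Gm7993, which had 385 ± 11.8 and 80.7 ± 2.58 TPM. The level of Gm7993 was 0.0807 ± 0.00218 of that of Odc1 with LPS and 0.0781 ± 0.00430 with LPS + UDCA, a difference smaller than the SD in the LPS + UDCA libraries.

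Srm, on the plus strand of chromosome 4 from 148591503 to 148594993 (ENSMUSG00000006442), had 132, 121, 120.2 and 113 TPM with LPS and 75.0, 77.9, 77.0 and 72.5 TPM with LPS + UDCA. The groups did not overlap, and the log2 fold change of -0.68 (95% confidence interval -0.79 to -0.56, adjusted p = 2.6e-06 from limma) was under 2-fold. Sat1, which acts in the opposite sense to Odc1 and Srm, also fell. It lies on the minus strand of chromosome X from 155213132 to 155216449 (ENSMUSG00000025283) and had 654, 683, 695 and 700.0 TPM with LPS and 246, 234, 242 and 241 TPM with LPS + UDCA. The means were 683 ± 20.6 and 241 ± 4.78 TPM, 2.84-fold lower (log2 fold change -1.501, 95% confidence interval -1.57 to -1.43, adjusted p = 1.5e-09 from limma). The ratio of Odc1 to Sat1 was 7.35, 7.08, 6.82 and 6.75 in the LPS libraries and 4.25, 4.53, 4.28 and 4.14 in the LPS + UDCA libraries. Its means were 6.996 ± 0.273 and 4.30 ± 0.165, and every LPS library had the higher ratio.

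**Figure D3:**
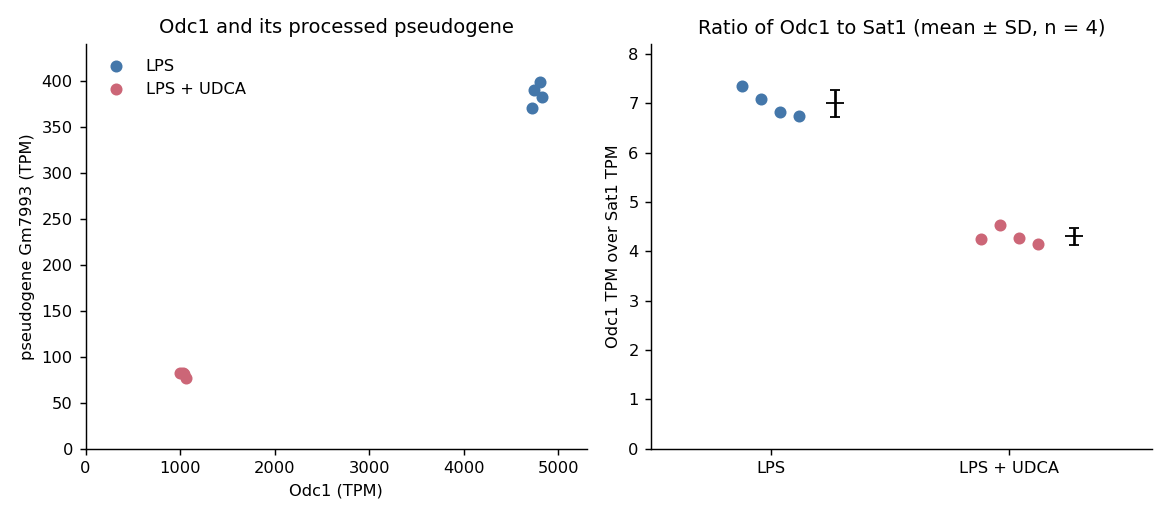
Left, TPM of Odc1 (x axis) and of its processed pseudogene Gm7993 (y axis) in the 4 LPS (blue) and 4 LPS + UDCA libraries (red), both axes linear from 0. Right, the ratio of Odc1 TPM to Sat1 TPM in each library, with the mean ± SD of 4, which is 6.996 with LPS and 4.30 with LPS + UDCA.

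The stretches before the start sites of Odc1 and Sat1, which fell together, and of Gch1, which did not, are shown so that genes that moved differently can be set side by side. They are from RefSeq on GRCm38.p6, 5′ to 3′ on the strand of the gene, and end at the base before the annotated start of the gene in GENCODE M21. Capitals mark a match to one of the 8 motifs searched.
Odc1 (chr12:17544623-17544793, plus strand): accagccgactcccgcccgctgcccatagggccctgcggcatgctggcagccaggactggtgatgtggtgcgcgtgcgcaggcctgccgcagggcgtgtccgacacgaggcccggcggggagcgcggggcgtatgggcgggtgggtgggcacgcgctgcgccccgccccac
Sat1 (chrX:155216450-155216699, minus strand): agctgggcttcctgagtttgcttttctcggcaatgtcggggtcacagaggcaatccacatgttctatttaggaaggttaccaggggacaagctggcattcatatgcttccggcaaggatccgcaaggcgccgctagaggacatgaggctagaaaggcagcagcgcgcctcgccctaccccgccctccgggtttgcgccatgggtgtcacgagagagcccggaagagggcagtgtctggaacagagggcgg
Gch1 (chr14:47189414-47189663, minus strand): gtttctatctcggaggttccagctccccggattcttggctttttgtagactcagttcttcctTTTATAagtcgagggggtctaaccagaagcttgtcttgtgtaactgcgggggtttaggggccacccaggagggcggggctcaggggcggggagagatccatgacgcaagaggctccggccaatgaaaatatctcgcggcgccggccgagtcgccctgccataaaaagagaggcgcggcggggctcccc
Promoter sequences were matched for 4 of the 10 genes, these and Ass1. In windows from 250 bases before to 50 after the RefSeq start, the share of G and C was 78.0% for Odc1, 74.0% for Ass1 and 60.3% for both Sat1 and Gch1, against a median of 52.7% over 32851 promoters. Both strands were searched for the NF-κB site of the immunoglobulin κ enhancer, a looser NF-κB pattern that includes it, the E-box bound by MYC and other factors (CACGTG), the STAT site (TTCNNNGAA), the cAMP response element (TGACGTCA), the antioxidant response element (TGACNNNGC), an ATF4 site (TGATGNAAT) and the TATA box (TATAAA). Of all promoters they occur in 0.155%, 20.7%, 7.15%, 8.30%, 1.79%, 12.4%, 0.965% and 13.6%, in that order. None of these 8 has a match in the windows of Odc1 and Sat1. The Gch1 window holds the TATA letters on the reverse strand from base -188, and the Ass1 window holds the looser NF-κB pattern from base -152 and an E-box from base -36, shown here with its flanks because it is the only E-box among the 4 windows.
Ass1 (chr2:31470222-31470251, plus strand): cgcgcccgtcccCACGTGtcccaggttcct
This site lies before the RefSeq start but after the GENCODE start of Ass1.

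The other genes of polyamine synthesis and its control were less different between the groups than Odc1. Of 8 listed genes 7 were tested, and 0 passed both thresholds in either direction by limma, where 8.71% of all genes tested rose and 8.44% fell. At an unadjusted p under 0.05 from limma there were 4 lower and 1 higher, against 33.2% and 41.3% of all genes tested (median log2 fold change -0.40). Oaz1, which encodes the antizyme that directs ornithine decarboxylase to degradation, was the most abundant, at 784 ± 34.1 TPM in the LPS libraries and 593 ± 21.9 TPM in the others (log2 fold change -0.40, adjusted p = 1.7e-05 from limma). Azin1, the antizyme inhibitor, had 42.8 ± 4.48 and 44.4 ± 4.05 TPM, and its log2 fold change of 0.05 had an adjusted p of 0.59 from limma, and it ran from -0.05 to 0.11 over the alternatives. Amd1, whose product makes the aminopropyl donor for spermidine, had 18.9 ± 1.09 and 11.9 ± 1.198 TPM (log2 fold change -0.63), but 82.8% of its 31-base words occur in 8 other genes, among them its copy Amd2. Among genes of polyamine breakdown and transport, 5 of 7 were tested and 1 fell past both thresholds, where 8.44% of all genes tested did so. By limma 0 rose, against 8.71%, and 0 were higher at an unadjusted p under 0.05, against 41.3% (median -0.39). The gene that fell was Atp13a2, a lysosomal polyamine exporter, which went from 81.2 ± 5.46 to 28.2 ± 2.93 TPM (log2 fold change -1.49, adjusted p = 2.5e-07 from limma).

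Ornithine also leads to proline, and arginine to creatine. In that list 8 of 9 genes in the table were tested and 3 fell past both thresholds, where 8.44% of all genes tested did so. By limma 0 rose, against 8.71%, and 2 were higher at an unadjusted p under 0.05, against 41.3% (median -0.55). Among those that fell, Gatm and Gamt, which encode the successive enzymes of creatine synthesis, went from 38.3 ± 2.74 to 9.95 ± 0.651 TPM and from 3.41 ± 0.746 to 1.005 ± 0.233 TPM, with log2 fold changes of -1.84 and -1.13. Pycr1, a mitochondrial enzyme of proline synthesis, had 14.1 ± 1.14 and 20.5 ± 0.909 TPM and was higher under 2-fold (log2 fold change 0.51, adjusted p = 1.0e-04 from limma), as was the creatine transporter gene Slc6a8 (0.50).

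Methionine supplies the aminopropyl groups of spermidine and spermine, and spermidine is the source of the hypusine of the translation factor eIF5A. In the list of methionine supply and salvage, 8 of 9 genes were tested and 1 fell past both thresholds, where 8.44% of all genes tested did so. This was Enoph1 of the salvage pathway, from 21.1 ± 1.62 to 10.01 ± 1.14 TPM (log2 fold change -1.01). By limma 0 rose, against 8.71%, and 2 were higher at an unadjusted p under 0.05, against 41.3% (median -0.31). Enoph1 was short of 2-fold with protein-coding scaling (-0.998) and in 4 fits that left out a library, LPS replicate 1 (-0.986) or 2 (-0.983) or LPS + UDCA replicate 1 (-0.956) or 4 (-0.991), each with an FDR under 0.05. Mat2a, which encodes the catalytic subunit of the S-adenosylmethionine synthetase of most tissues, had 47.8 ± 2.07 and 27.5 ± 1.31 TPM (log2 fold change -0.78), and Mat2b, its regulatory subunit, had 25.1 ± 0.724 and 35.7 ± 0.550 TPM (0.50). For hypusine, 3 of 4 genes were tested and 0 passed both thresholds in either direction by limma, where 8.71% of all genes tested rose and 8.44% fell. At an unadjusted p under 0.05 from limma 2 were lower, against 33.2% of all genes tested (median -0.56). Eif5a, for the factor itself, was at 1716 ± 11.3 TPM in the LPS libraries and 1164 ± 21.9 TPM in the others (log2 fold change -0.56, adjusted p = 7.6e-08 from limma).
Over these 7 lists and that of nitric oxide synthases, 46 of the 66 genes in the table were tested. Of the 46, 8 fell and 0 rose past both thresholds by limma, where 8.44% of all genes tested fell and 8.71% rose. At an FDR under 0.05 there were 29 lower and 7 higher, against 32.3% and 40.2% of all genes tested, with a median log2 fold change of -0.40. With lists chosen when earlier results were known, these counts too cannot test the pathway.

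**Figure D4:**
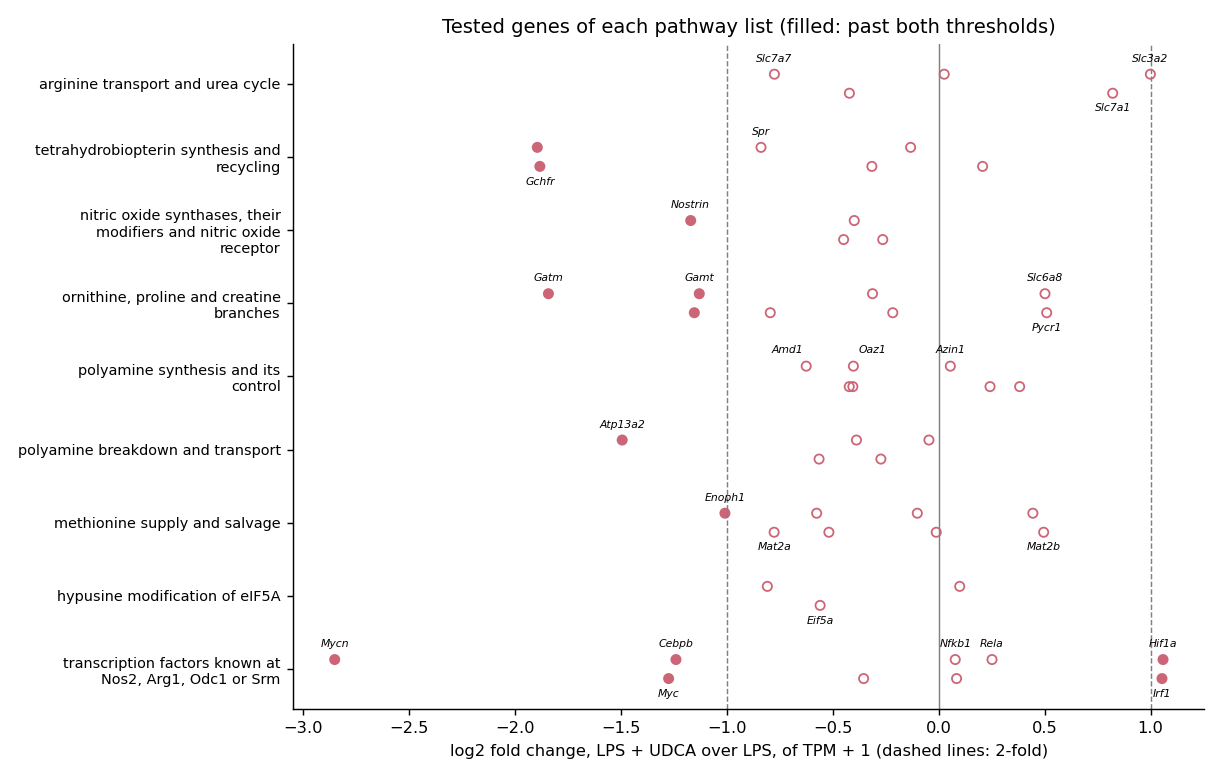
Log2 fold change (x axis, LPS + UDCA over LPS, of TPM + 1) of each tested gene of the 8 pathway lists and of the transcription factors, 1 line per list. Filled points passed both thresholds, dashed lines mark 2-fold, and genes named in the text are labelled. The 8 filled points of the pathway lists lie on the left, among them Gchfr at -1.88 and Enoph1 at -1.01, and Slc3a2 is the pathway gene farthest to the right, at 0.99873.

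Transcription factors with known roles at Nos2, Arg1, Odc1 or Srm were listed separately, and 9 of 9 were tested. Past both thresholds 3 fell and 2 rose, against 8.44% and 8.71% of all genes tested. Whether any of these factors acted on those genes in these cells was not tested. Myc and Mycn, whose products activate Odc1, went from 69.4 ± 2.02 to 28.1 ± 1.29 TPM and from 104 ± 4.61 to 13.6 ± 0.680 TPM, with log2 fold changes of -1.27 and -2.85 (adjusted p = 2.9e-08 and 7.4e-10 from limma). Cebpb also fell (log2 fold change -1.24), with 161, 148, 83.8 and 60.1 TPM in the LPS libraries, a wide spread. Irf1 and Hif1a, whose products act at the Nos2 promoter, rose, from 5.81 ± 0.400 to 13.1 ± 0.329 TPM and from 18.1 ± 2.35 to 38.8 ± 3.89 TPM (log2 fold changes 1.05 and 1.06). Both were just short of 2-fold with median-of-ratios scaling (0.956 and 0.954), as were Irf1 with quantile normalization (0.966) and Hif1a without LPS + UDCA replicate 4 (0.997). The NF-κB subunit genes Nfkb1 and Rela had log2 fold changes of 0.08 and 0.25 (adjusted p = 0.20 and 0.028 from limma), and that of Nfkb1 ran from -0.03 to 0.17 over the alternatives.

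The genes whose values over the 8 libraries were most like those of Odc1, by the root mean square difference of log2(TPM + 1) after each gene was centred on its mean, were Urah (0.046), Lyz2 (0.052) and the pseudogene Gm7993 (0.057). Urah went from 239 ± 8.80 to 51.5 ± 2.68 TPM, and the lysozyme gene Lyz2 had 1988 ± 93.8 and 436 ± 20.0 TPM. For Gch1, the gene with the highest log2 fold change, they were Atp5mpl (0.034), Mea1 (0.039) and Pgm1 (0.040), all of which had log2 fold changes between 0.12 and 0.18.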

How the data were processed

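The table that the authors deposited holds TPM to 2 decimals, a column for each library. The unit was inferred from the values. Per the labels, libraries were made with an Illumina TruSeq RNA kit, and the submitters' processing notes name Bowtie 0.12.2 and the builds mm10 and GRCm38 without giving their role. The counting program and the use of strand are not given in the sources used here. Libraries were grouped by the treatment label.

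Genes averaging 1 TPM or more (11796) were fitted on log2(TPM + 1) in limma 3.58.1 (R 4.3.3), with a mean-variance trend, and p-values were adjusted (Benjamini-Hochberg) over all of them. Ass1 was compared by an exact permutation test over 70 arrangements, 2-sided. Positions and shared 31-base words are from GENCODE M21 (GRCm38). The members and lists were chosen with earlier results of these data known. From each list, the text names the genes past both thresholds (the 2 highest and 2 lowest where there are over 4) or, if none passed, the most abundant, and for the members with the lowest and highest log2 fold change the 3 most similar genes. Other genes (among them Slc7a1, Slc7a7, Spr, Azin1, Amd1, Pycr1, Slc6a8, Mat2a, Mat2b, Cebpb, Nfkb1 and Rela) were named after their values were seen. Some listed genes that the rule names are not reported here. Alternatives changed the pseudocount, filter, scaling, variance model, threshold, block and libraries. Tables and figures were made in Python 3.11.15 (pandas 2.3.3, matplotlib 3.10.9).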

Additional observations from a re-analysis of the deposited data

Results flagged for a closer look

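In each group of 4, the distance from the highest or lowest library to the next was taken as a share of the whole spread and set against Dixon's 95% critical value. Of 59 groups of values, 4 passed, where chance gives about 2.95. For Ass1, LPS replicate 2 was the highest at 1.04 TPM (0.940 of the range), and the same library was the highest for the ratio of Ass1 to Asl at 0.0165 (0.931). For Eif5a, LPS replicate 3 was the highest at 1733 TPM (0.936). For Slc3a2, LPS replicate 2 was the highest at 464 TPM (0.836).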

How the results depend on the processing

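Odc1, Nos2 and Sat1 were past 2-fold with an FDR under 0.05 in each of the 19 alternatives, and no log2 fold change of the 7 tested genes changed sign. The alternatives of filter, variance model, threshold and block cannot move a log2 fold change, only its p-value or call. With limma's test against a fold change of 1.2 (treat), 3118 genes were higher and 2482 lower, 6 and 19 of them in the pathway lists, and Asl (-0.77) and Srm (-0.68) passed. Without a fold change minimum 4741 genes were higher and 3807 lower, 7 and 29 of them in the pathway lists, and Asl (-0.77), Srm (-0.68) and Gch1 (0.14), the only 1 of the 10 genes higher, passed. In the pathway lists, 1 gene rose with a pseudocount of 0.1, 1 with quantile normalization and 1 with TPM rescaled to the protein-coding total. These counts follow from the thresholds, since that gene was Slc3a2, which lies at 2-fold. Slc3a2 was also the gene that rose without LPS replicate 2 and without LPS + UDCA replicate 2. With each library left out in turn, 959 to 1122 genes rose and 972 to 1033 fell, 3 to 4 of the 10 genes fell (Arg2 included), 0 to 1 pathway genes rose and 7 to 8 fell, and the log2 fold change of Arg2 ran from -1.204 to -0.995. Arg2 could not be fitted when at least 1 TPM was required in every library, and it ran from -2.36 to -0.995 over the alternatives. The ratio of Odc1 to Sat1 stayed within 6.88 to 7.08 (LPS) and 4.22 to 4.35 (LPS + UDCA). Replicate numbers are shared by the groups. Deviations from the group means correlated by -0.035 to 0.15 in same-numbered pairs and by -0.14 to 0.16 in others. Of the 4 libraries in each group, 2 with LPS and 3 with LPS + UDCA correlated best with their own number. The numbers were not taken as pairs in the main fit, but these values do not settle whether they are. With the replicate number as a block, 1034 genes rose and 1000 fell, and no call among the 10 genes changed. The summed TPM of the arginases with LPS + UDCA ran from 0.490 to 0.933 with a library left out. Without counts, no counting error can be given for the low values of Arg1, Arg2 and Ass1.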

Other observations

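Some genes of nitric oxide metabolism were under the filter and so were not tested, and were picked out after their values were seen. Nos3, the endothelial synthase, had 0.21, 0.16, 0.05 and 0.09 TPM with LPS and 0.84, 0.85, 0.79 and 0.74 TPM with LPS + UDCA, and its groups did not overlap. Nos1, the neuronal synthase, had 0.668 ± 0.248 and 0.553 ± 0.248 TPM, with overlapping groups. Ddah2, which breaks down methylated arginines that inhibit the synthases, had 1.16 ± 0.130 and 0.653 ± 0.191 TPM, and its groups did not overlap. Of the 31-base words of Nos3, 25.1% occur in the genes Gm15587 and Atg9b. These levels are far below the 71.3 TPM of Nos2 in the LPS + UDCA library where it was lowest.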
